A study of Mus musculus with 8 samples.

Results

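The cytosines described here surround the 6 single cytosines with the largest methylation differences between the control group and the arsenic group, and belong to the genes at or nearest to them, Cux2, Nav2, Daam1, Tgm1, Synj2 and Csn1s1. They comprise 2501 of the 2130064 CpG cytosines covered on chromosomes 1 to 19, X and Y, of which 175 lie within 5 kb of an index cytosine, as each of the 6 is called below, and 2453 lie in the genes or within 1 kb upstream of them. The index cytosines were chosen by the weighted difference itself, as the 3 largest decreases and the 3 largest increases among called cytosines with no overlap between the 4 arsenic and the 4 control levels. Their values are therefore a description without a test. Every other cytosine was taken by position alone, and the question put to it was whether neighbours and the opposite strand followed the index cytosine.

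Reduced representation bisulfite sequencing (RRBS), in which unmethylated cytosines are converted and methylated ones still read as C, was applied to cells labelled type A spermatogonia. Type A spermatogonia are the spermatogonial stem and progenitor cells of the testis. The cells were taken at postnatal day 6 from F1 males of C3H/HeN dams and enriched with an antibody to CD49f (Itga6), a surface integrin. The dams of the control group drank tap water, and those of the arsenic group were given sodium arsenite in it at 85 ppm on gestational days 8 to 18. For each of the 4 control and 4 arsenic samples, 8 testes of 4 mice were pooled, and how many dams a pool came from is not stated in the sources used here.

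In mammals, DNA methylation is laid down almost entirely at CpG dinucleotides, where both strands normally carry the mark because the maintenance methyltransferase copies it after replication. Male germ cells are remethylated between the fetal stage and the first days after birth, and CpG-rich promoters are mostly left unmethylated. Enhancers and tissue-specific elements in introns and between genes often hold intermediate levels. Cux2 is a homeodomain transcription factor known from upper-layer cortical neurons, Nav2 a neuron navigator protein of the cytoskeleton, and Daam1 a formin that acts in planar cell polarity signalling. Tgm1 is the transglutaminase that crosslinks the cornified envelope of the epidermis, Synj2 a phosphoinositide phosphatase of membrane traffic, and Csn1s1 the milk protein alpha-S1-casein.

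The sequences around the index cytosines are shown because the spacing of covered CpGs differs between them. Each holds 121 bases of GRCm38 (mm10), 5′ to 3′ on the strand of the index cytosine, which is base 61, and capitals mark every CpG that was covered on that strand in all 8 samples.
Cux2, chr5:121914236-121914356, minus strand: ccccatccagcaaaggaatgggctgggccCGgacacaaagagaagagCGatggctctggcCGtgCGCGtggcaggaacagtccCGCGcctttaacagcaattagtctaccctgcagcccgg
Nav2, chr7:48985635-48985755, plus strand: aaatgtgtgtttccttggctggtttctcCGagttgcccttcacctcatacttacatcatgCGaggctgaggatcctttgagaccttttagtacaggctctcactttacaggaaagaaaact
near Daam1, chr12:71778138-71778258, plus strand: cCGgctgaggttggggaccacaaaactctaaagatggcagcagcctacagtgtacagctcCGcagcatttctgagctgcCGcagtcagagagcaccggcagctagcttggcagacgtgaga
Tgm1, chr14:55712575-55712695, minus strand: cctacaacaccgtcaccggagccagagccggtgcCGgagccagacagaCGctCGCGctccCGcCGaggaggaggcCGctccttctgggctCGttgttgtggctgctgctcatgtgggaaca
Synj2, chr17:5950490-5950610, plus strand: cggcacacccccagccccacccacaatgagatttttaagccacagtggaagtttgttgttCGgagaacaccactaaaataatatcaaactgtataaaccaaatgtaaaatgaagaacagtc
near Csn1s1, chr5:87634153-87634273, plus strand: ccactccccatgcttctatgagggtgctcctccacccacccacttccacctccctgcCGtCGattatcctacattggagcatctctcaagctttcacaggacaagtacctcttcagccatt
The Cux2 window holds 7 covered CpGs on the index strand and the Tgm1 window 8, so that several cytosines lie within reach of a single read. In the Synj2 window the index CpG is the only covered one. In the reference, the index cytosine lies in a CCGG fragment, the unit released by MspI, the enzyme usual in RRBS, of 89 bases at Cux2, 94 near Daam1 and 146 at Tgm1, and of 209 near Csn1s1, 407 at Synj2 and 488 at Nav2. No index cytosine lies inside a CCGG. The bases around the Csn1s1 site were 69.4% soft-masked as repeat and those at Synj2 25.6%, whereas the other windows were not masked. No index cytosine was itself masked.

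By position, the Cux2 site is at 121914296 of chromosome 5 in intron 4 of the gene, 135555 bases from its outermost start. The Nav2 site is at 48985695 of chromosome 7 in intron 2, 26622 bases from the start. The Synj2 site is at 5950550 of chromosome 17 in intron 1, 9270 bases from the start. The Tgm1 site, at 55712635 of chromosome 14, lies in coding exon 2, 857 bases from the outermost start. Near Daam1 and Csn1s1 the sites are intergenic, at 71778198 of chromosome 12 and 87634213 of chromosome 5, and lie 52870 and 31995 bases upstream of these genes, which are the nearest at higher coordinates.

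Coverage was low at the index cytosines. Summed over the 8 samples it was 111 to 169 reads, and only 0.351% to 12.9% of all cytosines had fewer. Over all cytosines the median coverage was 31 to 44 reads per sample, and no single library stood apart in depth or in mean level. The mean level was 54.07% to 54.25% in the control and 53.61% to 54.04% in the arsenic samples. Every arsenic sample was thus slightly below every control sample over all cytosines. The cell label was checked at promoters known to lack methylation in cells of the male germ line. Of 11 promoters of genes imprinted by maternal methylation, 8 were covered and averaged 59.6% ± 1.28 in the control and 55.9% ± 4.18 in the arsenic group (SD, n = 4), with no gene under 40.9%. Of 11 germ line promoters that somatic cells methylate, 10 were covered, at 83.9% ± 1.85 and 82.7% ± 1.97 (SD, n = 4), with no gene under 60.7%. These levels go against DNA from male germ cells alone, and the share of other cells was not estimated. The paper's own check was higher expression of Itga6 and Gfra1 than in the fetal cell fraction. It also reports that the cell stages separated by methylation. In a pooled sample, another share of cells of one type and another level within the cells cannot be told apart, and the part of the marker levels in the results below was not tested.

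At the Cux2 index cytosine the control samples 1 to 4 held 88.9%, 100%, 75.0% and 75.0% and the arsenic samples 1 to 4 held 27.3%, 42.9%, 50% and 30.8%, at 14 to 26 reads. All 4 arsenic samples sat within the lower part of the scale. At Nav2 the control samples held 77.8%, 100%, 85.7% and 93.5% and the arsenic samples 36.0%, 71.4%, 35.7% and 54.5%, at 14 to 31 reads. Arsenic sample 2 was there close to control sample 1, and the others were well below. At the site near Daam1 the control samples held 100%, 88.9%, 87.5% and 87.5% and the arsenic samples 40.0%, 50%, 16.7% and 61.1%, at 10 to 36 reads. Weighted by coverage, the group levels differed by −46.3, −43.9 and −43.4 percentage points at these 3 sites.

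Among the increases, the Tgm1 control samples held 16.7%, 28.6%, 22.2% and 29.6% and the arsenic samples 100%, 31.3%, 50% and 100%, at 12 to 27 reads. Arsenic samples 1 and 4 were highest, arsenic sample 3 lay between them and the control samples, and arsenic sample 2 lay next to the highest control sample. At Synj2 the control samples held 50%, 73.3%, 75.0% and 17.6% and the arsenic samples 93.3%, 100%, 100% and 92.3%, at 10 to 17 reads. Here the control samples were spread and the arsenic samples were close together. Near Csn1s1 the control samples held 36.4%, 46.7%, 77.8% and 56.5% and the arsenic samples 100%, 92.9%, 100% and 100%, at 15 to 28 reads. The weighted differences were 48.1, 44.6 and 43.9 points. The next sites in rank, just outside the choice, differed by −43.0 and 43.3 points, so the choice falls in a series without a gap. With any 1 sample left out, the 3 decreases and the Csn1s1 site still met the call rule, the Tgm1 site did not without arsenic sample 1 (36.0 points), and the Synj2 site did not without control sample 4 (28.9 points).

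**Figure D1:**
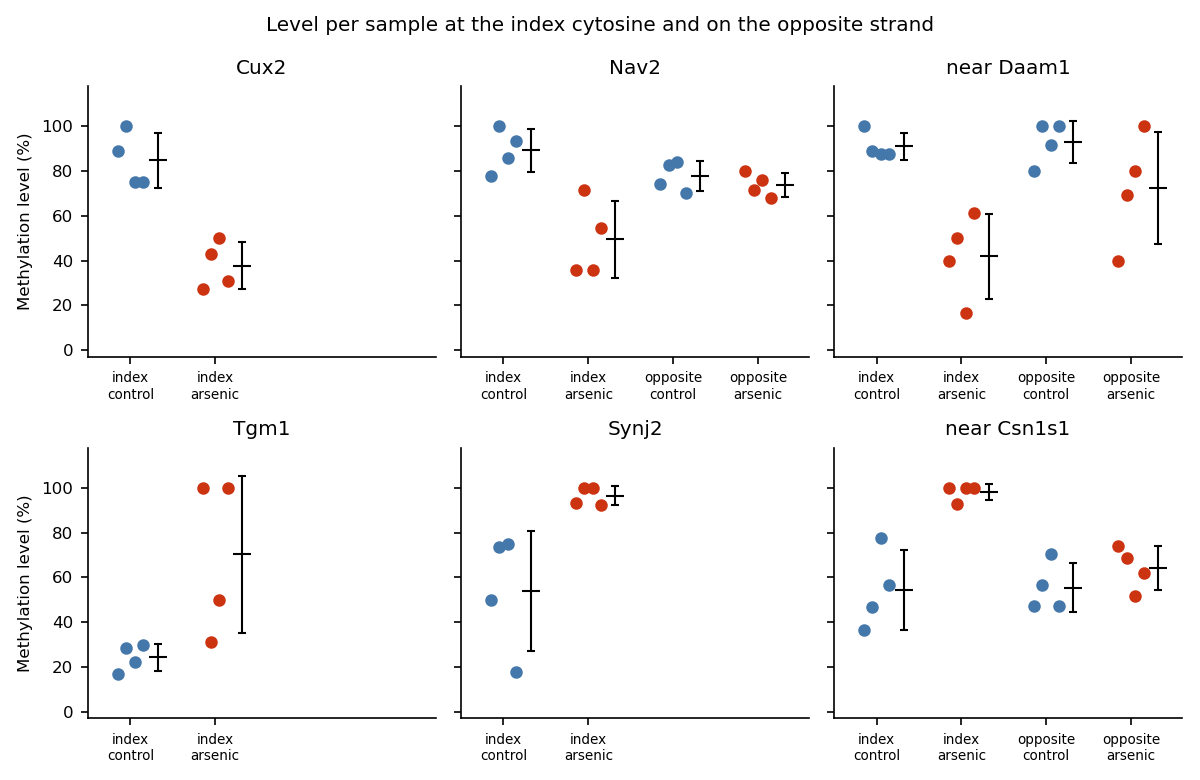
Methylation level (%) of every sample at the 6 index cytosines and, for Nav2, Daam1 and Csn1s1, on the opposite strand of the same CpG, with the mean and SD of 4 samples beside each group (blue control, red arsenic; an SD bar can pass 100%). The groups are apart at each index cytosine by choice, and they overlap on all 3 opposite strands.

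The read counts themselves had a feature that bears on these values. At the Cux2 and Daam1 index cytosines all 16 counts, the coverage and the methylated reads of 8 samples, were even numbers. At Cux2 the methylated reads were 16, 16, 18 and 18 in the control and 6, 6, 10 and 8 in the arsenic samples, and near Daam1 they were 26, 16, 14 and 14 in the control and 4, 10, 2 and 22 in the arsenic samples. At Tgm1 14 of the 16 counts were even, and at Nav2, Synj2 and Csn1s1 it was 10, 6 and 12. All counts were also even at 2 neighbours of the Cux2 site, at most 23 bases away and including the one at −23. The same held for the opposite strand of the Daam1 site and for 1 neighbour of the Tgm1 site. Over all cytosines, 54435 (2.56%) had only even counts. On the 5 chromosomes with an index cytosine, the share was 7.03% in CCGG fragments of up to 100 bases and 8.45% at over 100 and up to 150 bases, against 2.58% over 150 and up to 200 bases and 0.256% in longer ones. Whether both mates of a read pair were counted where they overlap was not tested. With the counts halved at all such cytosines, levels and differences stay as they are, and the q that entered the choice moved from 3.75e-06 to 0.00316 at Cux2 and from 4.85e-06 to 0.00352 near Daam1.

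The opposite strand of the same CpG was covered at 3 of the 6 sites, and it did not show a difference of the size seen at the index cytosine. Cytosines were tested with the likelihood-ratio test of logistic regression on pooled counts, and a cytosine was called at a Benjamini-Hochberg q of at most 0.01 over all cytosines and at least 10 points between the weighted group levels. Opposite the Nav2 site the control samples held 74.3%, 82.9%, 84.0% and 70.0% and the arsenic samples 80%, 71.7%, 76.1% and 67.8%, at 80 to 205 reads. The difference was −5.07 points (q = 0.306), and the groups overlapped. Opposite the Csn1s1 site the control samples held 47.1%, 56.8%, 70.3% and 47.3% and the arsenic samples 74.2%, 68.8%, 51.9% and 61.9%, at 55 to 145 reads. The difference of 4.99 points (q = 0.503) was again within the spread of the samples, on a strand read several times more deeply than that of the index cytosine. Opposite the Daam1 site, at 10 to 26 reads, the control samples held 80%, 100%, 91.7% and 100% and the arsenic samples 40.0%, 69.2%, 80% and 100%. The difference was −21.2 points (q = 0.0709), with arsenic samples 3 and 4 within the control range and arsenic samples 1 and 2 below it. All 3 opposite strands had the sign of their index cytosine, and 0 were called. With both strands summed the difference was −10.7 points at Nav2, 13.5 points at Csn1s1 and −34.1 points at Daam1, where the opposite strand had fewer reads than the index strand.

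Within 5 kb of the index cytosines lay 169 other cytosines, of which 1 was called, 0.592% against 0.552% of all cytosines. Non-overlapping groups were found at 4 of them, all lower in the arsenic group, 2.37% against 2.1% of all cytosines (1.21% lower). Over both directions, the shares are near the background, and they rest on 1 and 4 cytosines. The median difference was −1.64 points, against 0 over all cytosines.

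At Cux2 the neighbours on the same fragment partly followed. The 6 neighbours within 50 bases lie on the same strand and had 14 to 26 reads like the index cytosine, so that they may share its reads and are not independent of it. At −23, the control samples held 66.7%, 100%, 33.3% and 66.7% and the arsenic samples 36.4%, 42.9%, 30.0% and 30.8%, a difference of −28.4 points (q = 0.0199). The nearest cytosine below, at −4, held 94.1%, 100%, 83.3% and 91.3% in the control and 63.6%, 85.7%, 70.0% and 76.9% in the arsenic samples, a difference of −18.1 points (q = 0.0598). At both the groups overlapped through 1 control or 1 arsenic sample. The cytosine at −25 differed by −20.0 points (q = 0.0793), the one at −6 by 2.04 points (q = 0.988), and the nearest above, at 13, by −7.32 points (q = 0.47). The cytosine at −6 thus lay at the control level between others whose arsenic samples were mostly lower. The 6 cytosines from 4168 to 4465 bases away, which share no fragment with it, were also each lower in the arsenic group, with differences of −1.64 to −13.2 points. None of them was called, and those at 4197 and 4198, and at 4389 and 4390, are opposite strands of the same CpG. The mean level of the 6 was 76.8%, 78.7%, 81.8% and 77.8% in the control and 69.4%, 76.0%, 73.0% and 71.1% in the arsenic samples, a difference of −6.39 points with no overlap. How often such means do not overlap around other cytosines was not computed. Over all 12 neighbours the mean was 80.3% ± 5.18 in the control and 70.3% ± 5.88 in the arsenic group (SD, n = 4), and the groups overlapped.

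At Nav2 the neighbours showed no common direction. Of 45 neighbours other than the opposite strand, 25 were lower and 20 higher, and their mean was 73.1% ± 0.673 in the control and 73.8% ± 1.88 in the arsenic group (SD, n = 4). The nearest cytosine on the same strand, at −32, held 36.0%, 63.6%, 33.3% and 42.9% in the control and 38.5%, 76.5%, 58.8% and 66.7% in the arsenic samples, a difference of 14.4 points in the other direction (q = 0.252). The nearest on either side, at −31 on the minus strand and at 92, differed by −3.46 points (q = 0.544) and 6.57 points (q = 0.354). At 257 the groups did not overlap, with 32.5%, 25.6%, 22.5% and 32.1% in the control and 16.1%, 13.9%, 22.1% and 13.8% in the arsenic samples, a difference of −11.9 points whose q of 0.0127 missed the threshold. Its opposite strand differed by −2.3 points.

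Around the Daam1 site 14 of 17 neighbours were lower in the arsenic group, with means of 68.9% ± 2.19 in the control and 64.5% ± 1.98 in the arsenic group (SD, n = 4). The means of the samples were 69.8%, 70.7%, 65.7% and 69.3% against 64.4%, 66.4%, 61.8% and 65.4%, so that arsenic sample 2 reached above control sample 3. The nearest cytosines at −59 and 19 differed by −7.45 points (q = 0.544) and −2.25 points (q = 0.978) on the same fragment, well within the spread of the samples. At −3047 the groups did not overlap, with a mean of 75.1% ± 8.54 in the control and 55.7% ± 6.08 in the arsenic group (SD, n = 4), a weighted difference of −20.4 points (q = 0.0273).

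At Tgm1, 52 neighbours divided into 28 lower and 24 higher, and their mean was 60.4% ± 1.83 in the control and 59.9% ± 1.25 in the arsenic group (SD, n = 4). The cytosine at 6, the nearest above, held 36.4%, 14.3%, 33.3% and 59.3% in the control and 70.0%, 22.2%, 66.7% and 93.3% in the arsenic samples, a difference of 21.5 points (q = 0.142). Arsenic samples 1, 3 and 4, the higher ones at the index cytosine, lay above every control sample here too, and arsenic sample 2 lay within the control range. This cytosine, on the same strand at 11 to 27 reads, may share the reads of the index cytosine and is not independent of it. The nearest below, at −3, differed by 1.97 points (q = 1), with 31.6% and 50% in arsenic samples 1 and 4, which held 100% at the index cytosine 3 bases away. At 8 and 12 the differences were 0.6 and 6.15 points. Farther away, the groups did not overlap at −418 and 2982, with differences of −18.7 points (q = 0.0418) and −16.6 points (q = 0.0436), opposite to the index cytosine.

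At Synj2 no cytosine was covered within 50 bases. The nearest above, at 63 on the same strand, held 100%, 87.5%, 94.1% and 88.2% in the control and 66.7%, 100%, 100% and 84.6% in the arsenic samples, a difference of −3.74 points (q = 0.81), and the nearest below, at −2059, differed by 8.10 points (q = 0.382). The 1 called neighbour of all 169 lies at −2128 on the minus strand, at position 5948422 of the same intron. It held 53.6%, 56.4%, 69.3% and 57.6% in the control and 86.0%, 78.0%, 77.8% and 68.1% in the arsenic samples, at 43 to 135 reads, a difference of 15.9 points (q = 0.00413). Control sample 3 and arsenic sample 4 overlapped, and the cytosine stayed called in 2 of the 8 fits that left out 1 sample. The 6 cytosines between −2233 and −2059 were all higher in the arsenic group. The 10 neighbours within 300 bases differed by −3.01 points on average and the 8 beyond that and up to 1000 bases by −1.52 points, with 7 and 6 of them lower and the groups overlapping in both classes. The 10 neighbours more than 1 kb away, these 6 included, averaged 83.6%, 83.8%, 86.1% and 82.7% in the control and 88.9%, 86.8%, 86.6% and 88.6% in the arsenic samples, with no overlap. That mean includes the called cytosine, and how often such means do not overlap elsewhere was not computed. Over all 28 neighbours the mean was 86.7% ± 0.639 in the control and 86.5% ± 1.04 in the arsenic group (SD, n = 4).

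Near Csn1s1, 1 neighbour followed and the rest did not. That neighbour, on the same strand, may share the reads of the index cytosine and is not independent of it. The cytosine at −3 on the same strand held 61.9%, 62.5%, 81.8% and 65.2% in the control and 80%, 84.6%, 100% and 92.6% in the arsenic samples, a difference of 21 points (q = 0.0342), and only control sample 3 reached into the arsenic range. Its opposite strand at −2, read 56 to 142 times, differed by 0.714 points (q = 1). The nearest above besides the opposite strand, at 83, differed by −5.11 points (q = 0.588), and the 10 cytosines from 83 to 285 bases away had a mean of 79.4% ± 3.73 in the control and 79.7% ± 1.23 in the arsenic group (SD, n = 4).

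**Figure D2:**
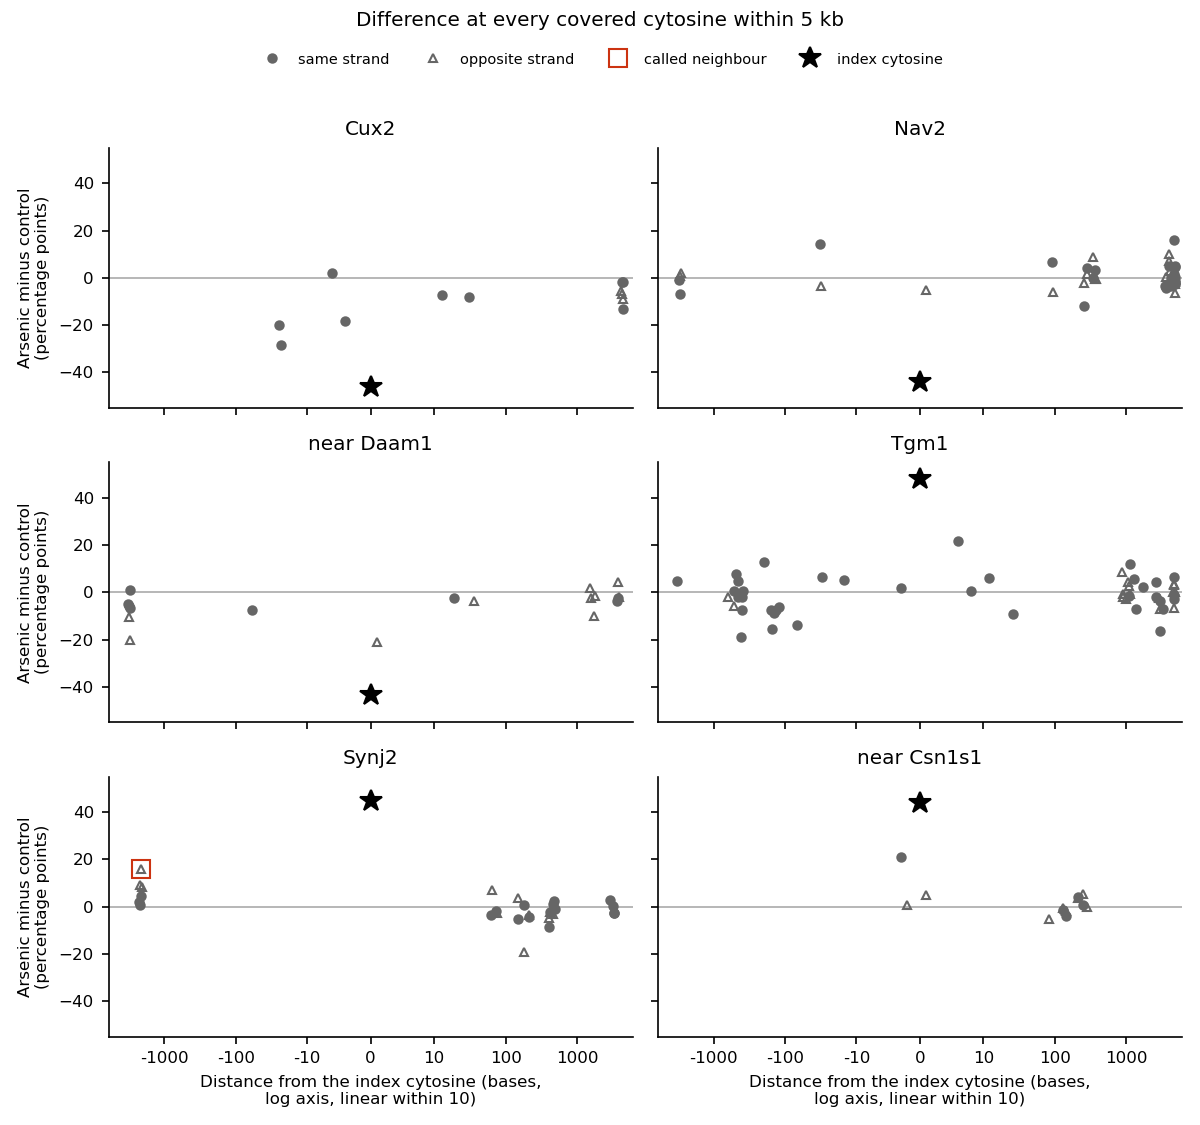
Arsenic minus control (percentage points, weighted by coverage) at the 6 index cytosines (stars) and at every covered cytosine within 5 kb, by distance in bases on a log axis that is linear within 10. Neighbours lie between −28.4 and 21.5 points, and the 1 called neighbour (15.9 points, square) is at −2128 from the Synj2 site.

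Signed by the direction of the index cytosine, the 19 neighbours within 50 bases other than the opposite strand had a median difference of 5.25 points, where the index cytosines themselves had 44.3, and 16 of the 19 had its direction. Beyond 50 bases and up to 1000 bases, most neighbours did not have it, and farther away most did. Up to 300 bases the median of 34 neighbours was −1.69 points with 12 in the same direction, above that and up to 1000 bases that of 27 was −1.93 points with 10, and farther away, up to 5 kb, that of 86 was 1.70 points with 55. The 100 next largest differences of the same kind gave 5.11 points for 266 neighbours within 50 bases, 66.5% in the same direction, and 0.897 points for 50 opposite strands, 56% in the same direction. For all 5160 others the median within 50 bases was 2.22 points (64.5% in the same direction), beyond that up to 300 bases 0.859 points (56.6%) and on 3350 opposite strands 0.181 points (51.6%). Beyond 1 kb the median was 0 in both of these sets, with 45.4% and 48.0% in the same direction. A neighbour with a difference of exactly 0 was counted as not in the same direction, which lowers these shares. Neighbours of 6 sites are few, and those within 50 bases include 7 of Tgm1 and 6 of Cux2. These 7 and 6 lie on the index strand at similar coverage, may share the reads of their index cytosine and are not independent of it. With 1 sample left out their median ranged from 1.87 points, without arsenic sample 3, to 7.89 points, without arsenic sample 2. At a coverage of at least 20 reads only 2 of the 19 were left, with a median of 2.09 points.

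**Figure D3:**
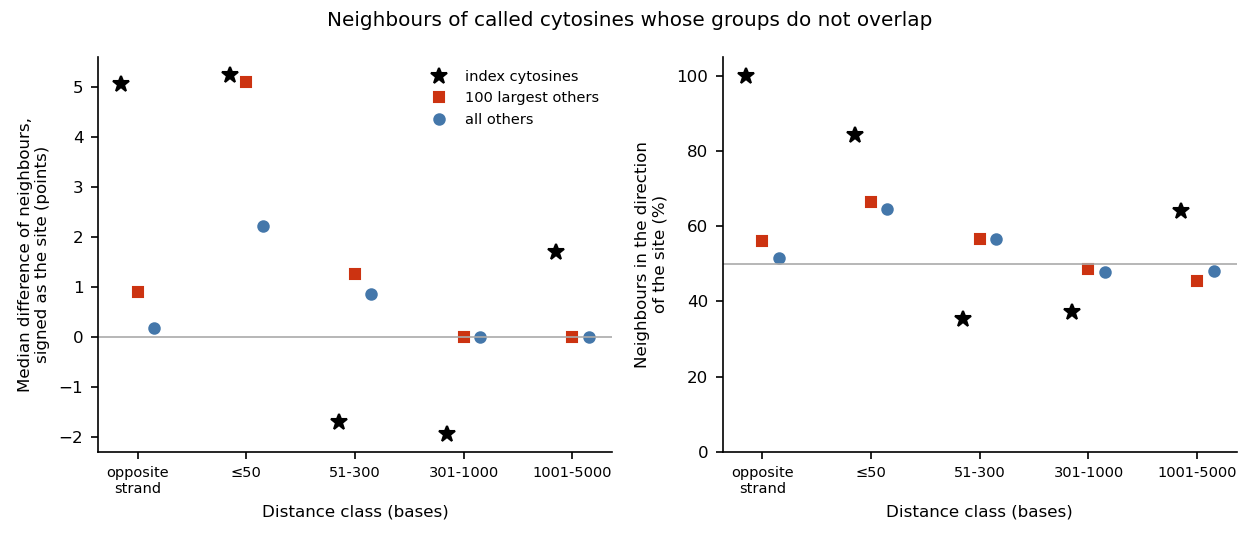
Median difference of neighbours signed by the direction of their site (left, percentage points) and share of neighbours in that direction (right, %), by distance class, for the 6 index cytosines, the 100 next largest and all other called cytosines whose groups do not overlap. In all 3 sets the median beyond 50 bases is under 2 points, against site differences with a median of 44.3, 35.6 and 16.6 points. Neighbours without any difference count as not in the direction of the site.

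Beyond the neighbourhoods, the genes themselves were covered at 863 cytosines in Cux2, 1077 in Nav2, 245 in Synj2, 222 in Daam1, 46 in Tgm1 and 0 in Csn1s1. Of the 2449 cytosines of the genes other than the index cytosines, 31 were called, 1.27% against 0.552% of all cytosines, 22 lower and 9 higher in the arsenic group. The background is 0.323% lower and 0.228% higher. Intermediate levels were more frequent among the members, and among cytosines with a mean of 10% to 90%, 1.69% of 1538 members and 0.916% of all were called. Non-overlapping groups were found at 81 of the 2449, 3.31% against 2.1% of all cytosines, 59 lower and 22 higher where the background is 1.21% lower and 0.892% higher. At 15 the cytosine was called and the groups did not overlap, against 0.243% of all cytosines. The median difference was −0.365 points, against 0 over all cytosines. These shares are descriptions, since the genes were chosen through their index cytosines, and cytosines of 1 gene are not independent. limma on log2 ratios of the reads with and without methylation, which takes in the spread between samples, called 0 members and 0 cytosines in all, and gave an unadjusted p under 0.05 at 6.81% of the members against 5.11% of all cytosines. Leaving out 1 sample in turn, 5 of the 31 remained called in all 8 fits, and each of these 5 was lower in the arsenic group.

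In Cux2, 13 cytosines were called, 9 lower and 4 higher. The largest difference was at position 121869266 in exon 18 of 23, where the control samples held 86.4%, 100%, 100% and 97.2% and the arsenic samples 69.2%, 75.0%, 63.8% and 71.4%, at 26 to 72 reads. The groups did not overlap, the difference was −25.7 points (q = 4.92e-08), and it was called in all 8 fits with 1 sample left out. Another 4 called cytosines within the same 137 bases of this exon were also lower, by −13.4 to −21.1 points. By position, they stayed called in only 5, 3, 3 and 3 of the 8 fits. Those on the minus strand, like the first, had similar coverage, may share its reads and are not independent of it. One of the 4, at 121869190 on the plus strand, held 100%, 100%, 80% and 100% in the control and 57.1%, 80%, 88.9% and 76.0% in the arsenic samples, a difference of −21.1 points (q = 0.00328) with overlap. The second largest difference in Cux2 had the other sign, at 121874204 in exon 16, where the control samples held 48.4%, 75.0%, 57.1% and 73.3% and the arsenic samples 53.8%, 100%, 89.5% and 92.3%, a difference of 22.4 points (q = 0.00727) that was lost in 5 of the 8 fits. Another decrease called in all 8 fits lies at 121897966 in intron 5, with 30.4%, 34.0%, 40.0% and 33.6% in the control and 24.5%, 21.3%, 6.67% and 19.4% in the arsenic samples at 79 to 139 reads, a difference of −16.3 points (q = 9.96e-05) with no overlap. In introns of Cux2, 4 called cytosines were lower and 3 higher.

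In Nav2, 14 intronic cytosines were called, 11 lower and 3 higher. The largest difference was an increase at 49538467, where the control samples held 41.2%, 60%, 80% and 57.1% and the arsenic samples 66.7%, 89.5%, 92.3% and 100%, at 10 to 26 reads, a difference of 33.0 points (q = 0.00343) with overlap. At 49399994 the control samples held 91.1%, 100%, 100% and 100% and the arsenic samples 81.0%, 78.3%, 86.0% and 71.0%, a difference of −19.8 points (q = 2.97e-06). At 49127219 the control samples held 73.1%, 72.6%, 80.3% and 77.3% and the arsenic samples 57.4%, 58.4%, 62.9% and 58.3%, at 61 to 142 reads, a difference of −17.1 points (q = 0.000184). At these decreases the groups did not overlap, and both stayed called in all 8 fits with 1 sample left out. The opposite strand of the last, however, differed by 6.54 points. This cytosine also lies within 9130015G15Rik, a gene of the other strand at 49121937 to 49162158 inside the intron.

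Runs of at least 3 called cytosines within 300 bases of the next occurred at 2 places, which were looked for after the values were seen. Their sequences are shown because they hold the only runs of at least 3 called cytosines in these genes, with capitals at the called CpGs and on the strand that holds most of them.
Cux2 exon 18, chr5:121869180-121869336, minus strand: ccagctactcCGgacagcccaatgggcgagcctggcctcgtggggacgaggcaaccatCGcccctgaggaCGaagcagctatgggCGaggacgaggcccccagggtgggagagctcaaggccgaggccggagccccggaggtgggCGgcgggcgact
Nav2 intron 12, chr7:49512570-49512794, plus strand: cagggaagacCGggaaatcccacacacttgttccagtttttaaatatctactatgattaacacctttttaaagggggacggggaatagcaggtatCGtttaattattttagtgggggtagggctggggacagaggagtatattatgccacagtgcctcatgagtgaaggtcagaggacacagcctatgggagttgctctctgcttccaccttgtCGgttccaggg
In exon 18 of Cux2, 11 cytosines were covered over 137 bases, 5 called and lower, 5 others lower and 1 higher by 1.35 points. The mean of the 11 was 85.7%, 95.7%, 89.9% and 90% in the control and 86.4%, 70.3%, 79.1% and 79.3% in the arsenic samples, and arsenic sample 1 lay within the control range. In intron 12 of Nav2, 7 cytosines were covered over 205 bases, 3 called and lower, and 4 others, which include opposite strands, lower with −1.57 to −9.78 points. Their mean was 25.7%, 23.0%, 19.8% and 23.6% in the control and 11%, 14.2%, 12.4% and 13.1% in the arsenic samples. The groups did not overlap, and the level was 23.0% ± 2.47 against 12.7% ± 1.36 (SD, n = 4). Both means include the called cytosines and get no test, and the 3 called cytosines of Nav2 remained called in only 1, 5 and 2 of the 8 fits with 1 sample left out.

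**Figure D4:**
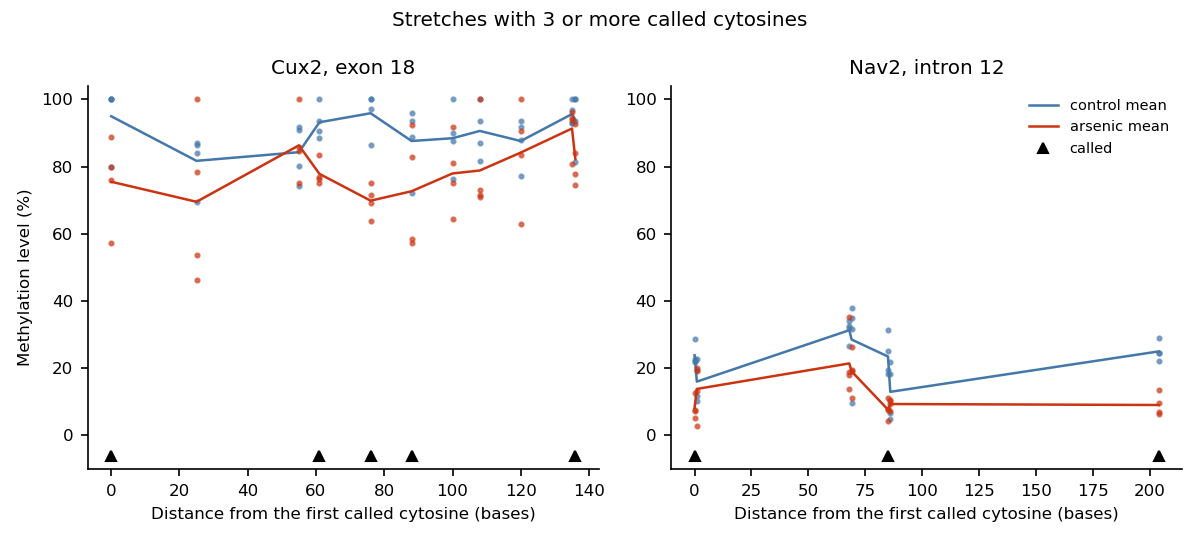
Methylation level (%) of each sample (points) and group means (lines) at every covered cytosine, on either strand, of the stretches in exon 18 of Cux2 and intron 12 of Nav2, by distance in bases from the first called cytosine. In Nav2 the 4 arsenic samples average 11% to 14.2% and the 4 control samples 19.8% to 25.7%.

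Daam1 and Synj2 held 2 called cytosines each and Tgm1 held 0. In Daam1 the coding cytosine at 71895848 held 80.8%, 63.0%, 66.7% and 52.5% in the control and 79.3%, 82.6%, 75.0% and 90.7% in the arsenic samples, a difference of 17.6 points (q = 0.00372) with overlap and with −5.32 points on the opposite strand. At 71928379 in intron 3 the control samples held 92.7%, 91.2%, 95.8% and 95.2% and the arsenic samples 68.3%, 79.8%, 77.1% and 90.1%, a difference of −13.3 points (q = 0.000122) without overlap, called in all 8 fits with 1 sample left out. In Synj2, the cytosine at 6029956 held 95.1%, 100%, 100% and 100% in the control and 86.2%, 86.7%, 66.7% and 100% in the arsenic samples, a difference of −14.3 points (q = 0.00846) with overlap. Of the 31 called cytosines in the genes, 18 had the opposite strand covered, and 15 of these had the same direction, with a median of 3.90 points toward it. Of the 11715 other called cytosines 7750 had it covered, 52.0% in the same direction with a median of 0.242 points, where a difference of exactly 0 was counted as not in the same direction. The 18 are few, include the called cytosines of the Nav2 run and are not independent of each other. None of their opposite strands was itself called.

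**Figure D5:**
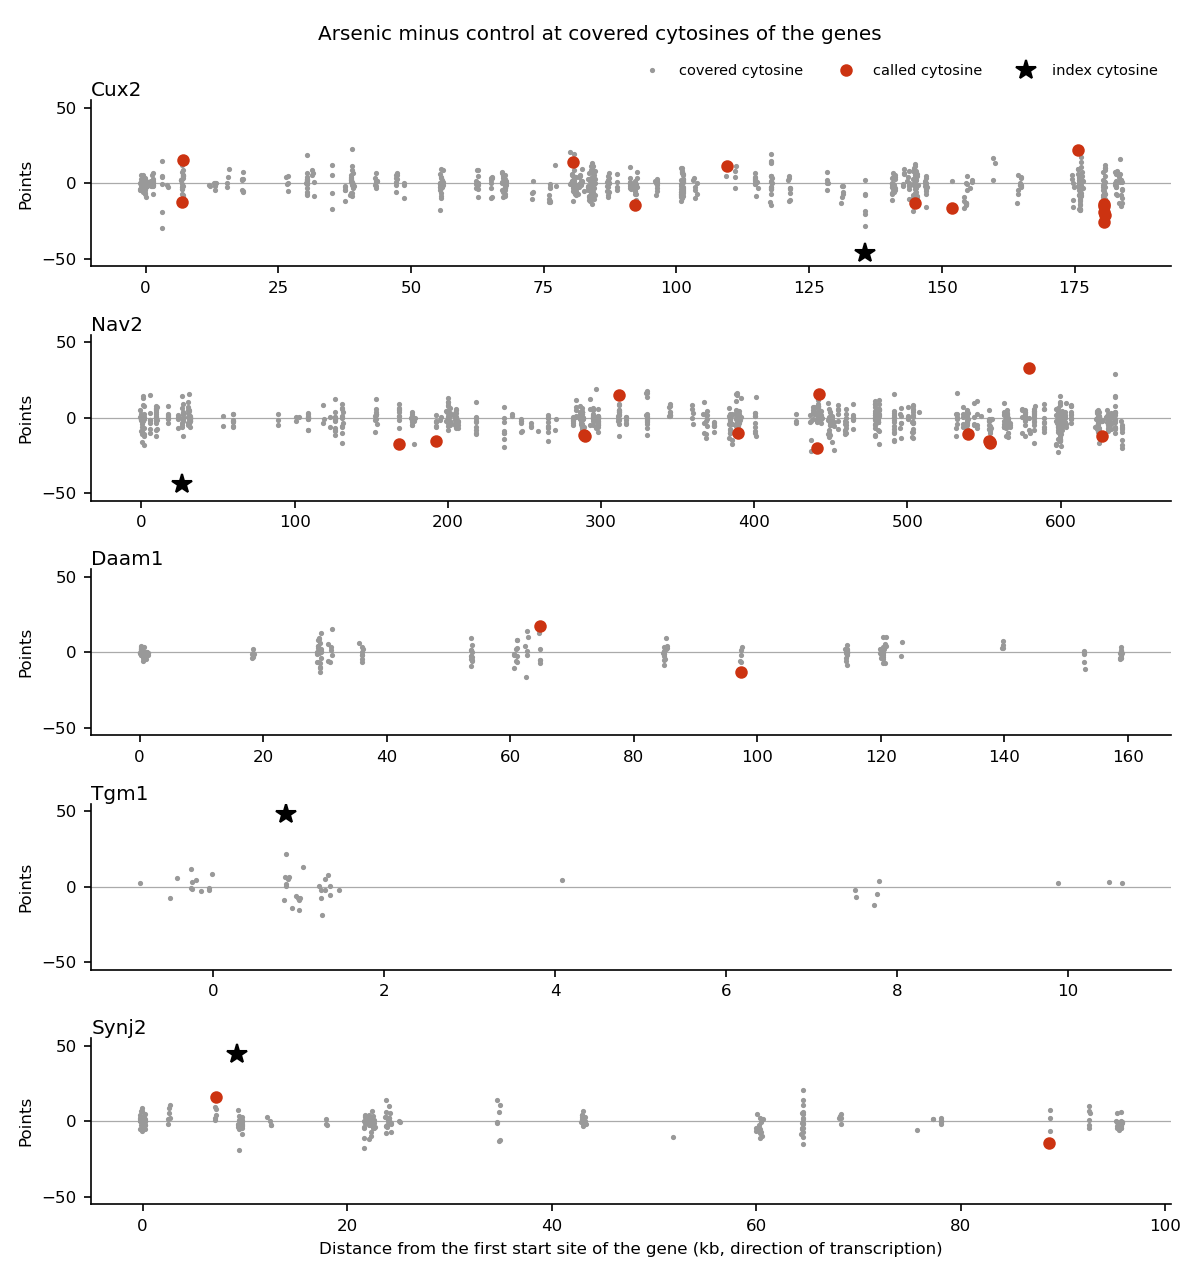
Arsenic minus control (percentage points, weighted by coverage) at every covered cytosine of 5 genes, by distance from the outermost start site in kb in the direction of transcription, with called cytosines in red and index cytosines as stars. Called cytosines number 13 in Cux2, 14 in Nav2, 2 in Daam1, 0 in Tgm1 and 2 in Synj2 besides the index cytosines.

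By region, the promoters of Cux2, Nav2 and Synj2 were nearly unmethylated in both groups, with 1.75% ± 0.0767, 3.75% ± 0.478 and 1.45% ± 0.665 in the control and 1.35% ± 0.327, 4.16% ± 0.552 and 2.13% ± 1.83 in the arsenic group (SD, n = 4; 116, 53 and 36 cytosines). The Tgm1 promoter, with 12 cytosines, had 16.5% ± 1.11 and 18.5% ± 1.85 (SD, n = 4). No promoter cytosine was called in any of the genes. The 87 coding cytosines of Cux2 averaged 81.0% ± 0.654 in the control and 77.5% ± 1.35 in the arsenic group (SD, n = 4), with no overlap, and 6 of its 13 called cytosines lay there. The 938 intronic cytosines of Nav2 averaged 62.2% ± 0.263 and 61.1% ± 0.534 (SD, n = 4), with no overlap and with 14 called. Both means include the called cytosines described above and are not independent of them. In every other region of the genes the groups overlapped, and the share of regions without overlap over all genes was not computed. The introns of Daam1 and Synj2 differed by −0.445 and −0.382 points, and their groups overlapped.

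Over its whole length, none of the genes passed the test. The gene level was the unweighted mean over the cytosines of the gene and 1 kb upstream, without the index cytosine and everything within 300 bases of it, and was tested with limma over 19590 genes with at least 5 cytosines. Cux2 held 58.9%, 59.8%, 58.4% and 59.3% in the control and 58.3%, 57.9%, 57.9% and 58.6% in the arsenic samples, a difference of −0.958 ± 0.46 points (SE, limma adjusted p = 0.827). Nav2 held 58.7%, 58.1%, 58.5% and 58.4% in the control and 58.0%, 57.1%, 56.8% and 57.5% in the arsenic samples, a difference of −1.07 ± 0.435 points (SE, limma adjusted p = 0.814), and it was the only one of the 5 whose groups did not overlap, as at 3.92% of all genes, 2.92% with the arsenic group lower. Daam1, Tgm1 and Synj2 differed by −0.205, −0.229 and −0.0453 points with limma adjusted p of 0.951, 0.959 and 0.991. limma passed 0 of the 19590 genes at an adjusted p of 0.05 and gave 1189 (6.07%) an unadjusted p under 0.05, Nav2 among them. The median difference over all genes was −0.225 points, and that of the 5 was −0.229.

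Relatives of the genes were read as a list of 16, made up of Cux1, Nav1, Nav3, Daam2, Synj1, the transglutaminases Tgm2 to Tgm7 with F13a1, and the caseins Csn1s2a, Csn1s2b, Csn2 and Csn3. Of their 1177 covered cytosines 10 were called, 6 lower and 4 higher, 0.85% against 0.552% of all cytosines. Cux1, the other Cut-like homeodomain factor, had 3 called cytosines, all lower, with a largest difference of −41.2 points. Tgm2, the tissue transglutaminase, had 2, with a largest difference of −26.6 points, and Daam2 had 1, at 22.1 points. Of the caseins, Csn3 had 2 covered cytosines and the others 0, so that this cluster was hardly read. At the gene level 11 relatives could be tested and 0 passed, with limma adjusted p of 0.761 at the lowest, in Tgm2 (−2.27 ± 0.778 points, SE). The genes whose level over the 8 samples was most like that of a member, by mean absolute difference, were Dock9 for Cux2 (0.388 points), Msrb3 for Nav2 (0.313), Melk for Daam1 (0.299), Ank2 for Tgm1 (0.28) and Deptor for Synj2 (0.324).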

How the data were processed

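RRBS was performed by the authors on 4 control and 4 arsenic pooled samples. Per the submitters' processing notes, Trim Galore 0.6.5, Bismark 0.22.3 and methylKit 1.22.0 were used with mm10. The deposited values are counts of reads, methylated reads and unmethylated reads per cytosine and strand, at least 10 per sample and not normalized. Counts from 1 read pair may not be independent.

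DMCs were called by the study's rule, with the likelihood-ratio test computed directly and Benjamini-Hochberg adjustment. methylKit itself was not run. limma 3.58.1 under R 4.3.3 (pseudocount 1), scipy 1.17.1, numpy 2.4.6, pysam 0.24.0, pandas 2.3.3 and matplotlib 3.10.9 under Python 3.11.15 were used. Tests were checked on simulated data. The simulated read counts had no spread between samples beyond read sampling. They therefore cannot show how the test on pooled counts behaves where samples spread more. Sequence and curated RefSeq transcripts were those of GRCm38, where 100% of 556673 cytosines on the 5 chromosomes were C on the stated strand. Regions give priority to the promoter, then coding exons, UTRs and introns.

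Named cytosines were the index cytosines, their opposite strands, the nearest cytosine on each side, called cytosines within 5 kb and up to 3 called cytosines per gene with the largest difference. Others were named after their values were seen. Members and lists were chosen with earlier results of these data known. Sample numbers were not stated to pair samples. Alternatives were overdispersion scaling, limma, coverage of at least 20, summed strands, a replicate block, unweighted levels, other gene weightings and minimums, and leaving out each sample, and, added after seeing the data, called cytosines without overlap and halved even counts.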

Additional observations from a re-analysis of the deposited data

Results flagged for a closer look

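In 5 of 84 groups of 4 samples examined, 1 sample stood apart from the other 3. For normally distributed values chance flags about 1 in 20 groups, here 4.2. That rate does not hold where the other 3 samples are all at 100%, since any lower level is then flagged. At the index cytosine near Daam1, control sample 1 held 100% and the other control samples 87.5% to 88.9%. At that near Csn1s1, arsenic sample 2 held 92.9% and the others 100%. At 3 called cytosines 1 control sample was below 100% while the others were at 100%. They were control sample 3 with 80% at 121869190 in Cux2, control sample 1 with 91.1% at 49399994 in Nav2 and control sample 1 with 95.1% at 6029956 in Synj2.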

How the results depend on the processing

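The count of 31 called members depended on the test. With overdispersion scaling and an F test, and with limma on log2 ratios, 0 were called, in total, lower, higher, within 5 kb, in Cux2 and in Nav2. Among the members, limma gave an unadjusted p under 0.05 at 170 (6.81%). With groups required not to overlap, 15 remained, 13 lower and 2 higher, 0 within 5 kb, 5 in Cux2 and 9 in Nav2. At a coverage of at least 20, 5 were higher, and with both strands summed 8 were called in Nav2. With the replicate number as a block, 17 were called, 12 lower and 5 higher, 7 each in Cux2 and Nav2. The correlation of same-numbered samples was −7.8e-05 to 0.00178, the numbers were not taken to pair the samples, and at the gene level the block changed no call. Halved even counts left all 31 called, but 0 of these had only even counts, so that their own counts were not changed.

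With 1 sample left out, 22 to 34 members were called, 12 to 23 lower and 3 to 11 higher, 0 to 3 within 5 kb, 8 to 16 in Cux2 and 6 to 17 in Nav2. Outside 1.5 times the count were, for decreases, 12 without arsenic sample 2, for increases 5, 4 and 3 without control sample 1 and arsenic samples 3 and 4, within 5 kb 3 without control sample 3 and 0 without arsenic sample 1, in Cux2 8 without arsenic sample 3 or 4, and in Nav2 6 and 9 without control samples 1 and 2. Gene-level calls were 0 to 1, the 1 without control sample 4. The neighbourhood mean difference ranged from −12.1 to −7.06 points at Cux2, −5.43 to −3.47 near Daam1, 0.113 to 1.24 at Nav2, 0.127 to 3.86 near Csn1s1, −1.07 to 0.377 at Tgm1 and −0.558 to 0.268 at Synj2. At Synj2 it was −0.191 as reported, 0.829015 over pooled reads, 1.25 at a coverage of at least 20 and 1.38 beyond 300 bases. The gene-level difference with 1 sample left out ranged from −0.374 to 0.0191 points in Daam1, −0.615 to 0.177 in Tgm1 and −0.284 to 0.346 in Synj2. It changed sign in Daam1 without control sample 3, in Tgm1 over pooled reads (0.263), at a coverage of at least 20 (1.09) and without arsenic sample 3, and in Synj2 at a coverage of at least 20 (0.0857) and without control sample 2 (0.346) or arsenic sample 2, 3 or 4 (0.0788, 0.00941 and 0.0147). The cause of these shifts was not tested. Depth limits the precision at the index cytosines, at 10 to 36 reads per sample.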
